A study of Homo sapiens with 9 samples.

Results

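The nuclear pore complex is the channel that spans the nuclear envelope, and its protein subunits are called nucleoporins. The gene group described here is a list of 30 gene symbols for nucleoporins and proteins bound to them. A member was a row of the deposited table whose gene symbol was one of those names. Of the 30 names, 28 were found among 46846 features, and all 28 passed the filter on low values (a library average of 10 or more, met by 16846 features). NUP160 was not analysed here, and NUP62 occurred only in a joint feature with IL4I1, which is described separately and enters no count.

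The series measured polyadenylated RNA in MDA-MB-231, an established human triple-negative breast cancer cell line. The groups were 3 libraries of cells given DMSO (time labelled 12 h), 3 of cells given 3.3 µM indisulam for 12 h and 3 of cells given 10 nM pladienolide B for 6 h, all in RPMI medium with serum and treated 24 h after seeding. Indisulam is a sulfonamide that makes the DCAF15 ligase mark RBM39, a splicing factor, for destruction, and pladienolide B inhibits the SF3b part of the spliceosome. All groups come from 1 cell line, and the pladienolide B cells differ from the DMSO cells in drug and in labelled time together, which cannot be told apart.

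The pore is built from nested rings. Y-shaped complexes of the Nup107 family form outer rings on both faces, and an inner ring of Nup93, Nup205, Nup188, Nup155 and Nup35 lies between them. Transmembrane nucleoporins anchor the rings, the Nup62, Nup58 and Nup54 trio lines the channel with FG repeats, cytoplasmic filaments release exported mRNA, and the nuclear basket receives cargo. Many nucleoporins are long-lived proteins in non-dividing cells, so the level of an mRNA need not match the number of pores.

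Upstream sequence is shown first for the genes on which the results turn: the 3 members that fell at least 2-fold with pladienolide B, the pair with the largest rises, and the near-identical POM121 pair. Each run is the 250 bases before 1 RefSeq transcript start (GRCh38.p14), written 5′ to 3′ on the gene's strand. Capitals mark the ETS motif CCGGAAG, or its reverse complement CTTCCGG. The RefSeq start of NUP35 lies inside the counted feature, and the NUP54 run reaches into the first bases of its feature.
NUP54, chr4:76148398-76148647, minus strand: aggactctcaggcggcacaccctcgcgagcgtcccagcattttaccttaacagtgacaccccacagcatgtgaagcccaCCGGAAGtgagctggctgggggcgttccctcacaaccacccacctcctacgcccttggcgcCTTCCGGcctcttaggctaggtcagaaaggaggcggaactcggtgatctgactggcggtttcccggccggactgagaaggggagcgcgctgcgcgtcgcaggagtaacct
NUP35, chr2:183124193-183124442, plus strand: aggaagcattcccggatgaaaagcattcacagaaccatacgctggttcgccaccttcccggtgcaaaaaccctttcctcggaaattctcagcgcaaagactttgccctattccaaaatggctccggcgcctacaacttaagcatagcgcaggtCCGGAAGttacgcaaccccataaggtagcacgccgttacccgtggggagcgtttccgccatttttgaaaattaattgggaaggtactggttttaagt
NUP214, chr9:131125336-131125585, plus strand: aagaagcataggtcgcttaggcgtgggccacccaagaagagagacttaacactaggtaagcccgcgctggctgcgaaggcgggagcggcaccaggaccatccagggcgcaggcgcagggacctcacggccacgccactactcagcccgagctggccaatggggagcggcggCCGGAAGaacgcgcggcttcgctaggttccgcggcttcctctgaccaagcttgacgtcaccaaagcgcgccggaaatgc
SEC13, chr3:10321113-10321362, minus strand: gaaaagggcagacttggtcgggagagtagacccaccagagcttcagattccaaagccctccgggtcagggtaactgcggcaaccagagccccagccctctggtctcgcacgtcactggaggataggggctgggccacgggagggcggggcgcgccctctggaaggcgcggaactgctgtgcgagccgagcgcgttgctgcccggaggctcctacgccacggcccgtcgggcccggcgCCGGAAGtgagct
NUP210, chr3:13420323-13420572, minus strand: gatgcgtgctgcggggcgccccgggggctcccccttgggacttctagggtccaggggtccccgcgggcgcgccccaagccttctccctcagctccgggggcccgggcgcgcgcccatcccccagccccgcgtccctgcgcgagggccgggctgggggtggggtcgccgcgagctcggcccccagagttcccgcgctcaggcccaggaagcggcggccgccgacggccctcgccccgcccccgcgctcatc
POM121, chr7:72879107-72879356, plus strand: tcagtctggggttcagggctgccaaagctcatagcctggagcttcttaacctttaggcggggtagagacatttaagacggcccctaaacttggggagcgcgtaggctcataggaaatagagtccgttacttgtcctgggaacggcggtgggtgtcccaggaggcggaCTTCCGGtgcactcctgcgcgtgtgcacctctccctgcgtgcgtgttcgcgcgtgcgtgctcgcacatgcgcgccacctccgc
POM121C, chr7:75486300-75486549, minus strand: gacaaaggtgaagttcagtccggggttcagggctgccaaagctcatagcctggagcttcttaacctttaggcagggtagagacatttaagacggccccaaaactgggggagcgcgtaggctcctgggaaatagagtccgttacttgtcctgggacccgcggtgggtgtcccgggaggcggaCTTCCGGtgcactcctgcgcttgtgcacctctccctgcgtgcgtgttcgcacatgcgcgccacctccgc
Of the 28 members, 25 had a promoter entry. AHCTF1, NUP43 and GLE1 had none. The ETS motif, searched on both strands, was in 11 of 25 member windows (44%), in 8.52% of all 35116 promoter windows and in 15.3% of the 10875 windows of tested genes. NUP54 carried it 2 times, NUP35, NUP214 and SEC13 carried it once each, and NUP210 had none. The CCAAT box (CCAAT) was in 9 of 25 member windows (36%) and 34.7% of those of tested genes. The GC box (GGGCGG) was in 11 member windows (44%) and 66.5% of those of tested genes, the E-box (CACGTG) in 2 (8%) and 8.73%, and the NRF1 core (GCATGCG) in 2 (8%) and 5.45%. None of these letter strings contains another, though matches may overlap at their ends, and a match is only a description of the sequence. The POM121 and POM121C windows matched at 216 of 236 aligned bases (91.5%) when shifted by 14 bases. Both are among the 11 windows with the ETS motif, so they are not independent entries in that count.

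Values are read counts scaled by a size factor for each library, called normalised read counts below. The libraries held 59312100 to 83910831 reads, and 3 reads, the most that a count of 0 allows, were worth 2.48 to 3.87 (counting error only). Markers of the line were high in DMSO cells (VIM 127792, CAV1 87155, CD44 48732 and EGFR 10487 normalised reads on average), and ESR1 (1.23) and PGR (0.559) were near 0. ERBB2 (5682), EPCAM (973) and CDH1 (70.6) were not at 0. Of the leukocyte markers CD3E was at 0.679, while CD68, which other cells also express, was at 7223. The pladienolide B libraries summed to more after the authors' scaling (82366487 to 87510746) than those of DMSO (60435009 to 61583500) and indisulam (62895851 to 63690595). The size factors therefore decide where 0 lies for pladienolide B. In that comparison the median log2 change of all features was −0.01 with the authors' factors, −0.115 with TMM scaling, −0.478 with all libraries set to the same total and 0.05 with quantile normalisation, and the members' median was −0.19, −0.296, −0.664 and −0.276. Library 2 of pladienolide B was low for features with long transcripts: its median deviation from its group was −0.03 (log2) over 2276 features with transcripts of at least 6000 bases and 0.05 over shorter ones.

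The members' transcripts made up 0.296%, 0.293% and 0.31% of all normalised reads in the DMSO libraries. The share was 0.277%, 0.279% and 0.289% with indisulam and 0.188%, 0.187% and 0.209% with pladienolide B. Both drug groups lay below DMSO without overlap. A share of all reads sets the libraries to equal totals. On that scale the median log2 change of all features was −0.478 with pladienolide B and −0.007 with indisulam. A lower share with pladienolide B is therefore not particular to the pore genes. In bulk RNA, fewer cells of a kind and less RNA per cell cannot be told apart. The plot of all members by library shows the values behind these sums.

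**Figure D1:**
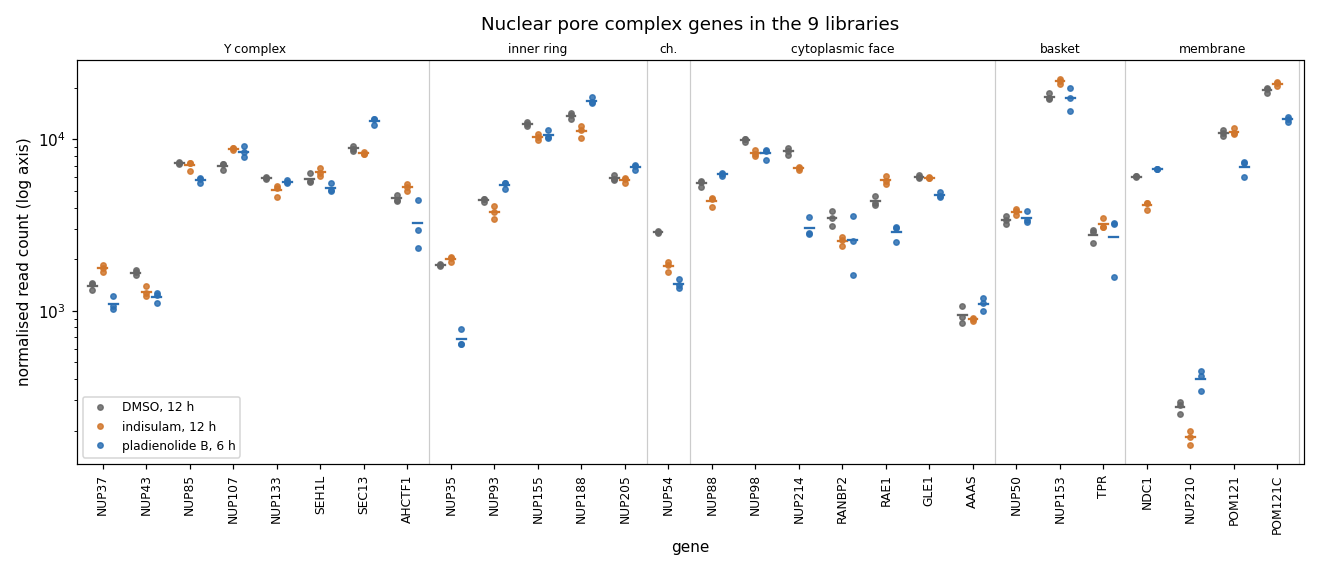
Normalised read count (log axis) of each of the 28 genes in the 9 libraries: points are libraries, short bars are group means, and genes are grouped by their place in the pore ("ch." is the central channel). In DMSO and indisulam POM121C and NUP153 are the most counted genes, NUP210 is the least counted in each group, and the pladienolide B points of NUP35 and NUP214 sit well below the other groups.

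Per kilobase of annotated exon (GENCODE 29), SEC13 had the highest DMSO level, 4132 ± 133 normalised reads per kb (SD, n = 3). POM121C followed at 3027 ± 95.6 and NUP153 at 2938 ± 131, within 1 SD of each other. NUP188 (2408 ± 101) and NUP85 (2353 ± 40.5) differed by less than the SD of NUP188, though by more than that of NUP85. The lowest per-kb levels were those of NUP210 (38.3 ± 2.99), TPR (286 ± 26.1) and RANBP2 (296 ± 28.7), of which TPR and RANBP2 did not differ beyond their spread. NUP210, a membrane glycoprotein of the pore that is known to vary between tissues, was thus the rarest member by this measure. No source used here states which exons were counted, so these lengths are approximate.

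With indisulam, changes among pore genes were small and more often downward. By limma with Benjamini-Hochberg adjustment at 0.05, 11 of 28 members fell and 4 rose, beside 12.4% and 14.5% of all features tested (26.9% in either direction). At an unadjusted p under 0.05, 18 of 28 differed. The share of all features at that threshold is not given here, and the 26.9% is not its background. Changes ran from −0.67 (NUP54) to 0.41 (RAE1) on the log2 scale, and no member changed 2-fold (1.47% of all features fell and 2.17% rose by that much). The median member change was −0.06, and that of all features 0.05. Values did not overlap between the groups for 13 members lower with indisulam and 9 higher, where 21% and 27.4% of all features did the same. The count of rises was 2 without indisulam library 3 and 8 when only the 6 libraries compared were fitted. Over all features these settings gave 1565 and 3497 rises, against 2437 in the main fit.

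Pladienolide B moved most pore genes, as it moved most genes measured. Of 28 members, 15 fell and 8 rose by the same test, beside 35.5% and 34.3% of all features tested (69.8% in either direction). NUP214, NUP35 and NUP54 fell at least 2-fold, beside 17.9% of all features. No member rose 2-fold, beside 9.62% of all features. The median member change was −0.19, and that of all features −0.01. The groups did not overlap for 14 members lower and 8 higher with the drug, beside 36.3% and 35.5% of all features; AHCTF1 and RANBP2 were called although 1 pladienolide B library reached the DMSO range. With all libraries set to the same total, 26 members fell and 0 rose, beside 9086 and 2733 of the 16846 features tested. Without pladienolide B library 2, 9 rose and 13 fell, beside 5579 and 5807 of all features. TMM scaling left 5 rises and quantile normalisation 4, beside 5082 and 6045 of all features. Of all features called, 49.1% were higher with the authors' factors, 43.5% with TMM and 23.1% with equal totals; the shares for indisulam were 53.8%, 42.5% and 40.3%.

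**Figure D2:**
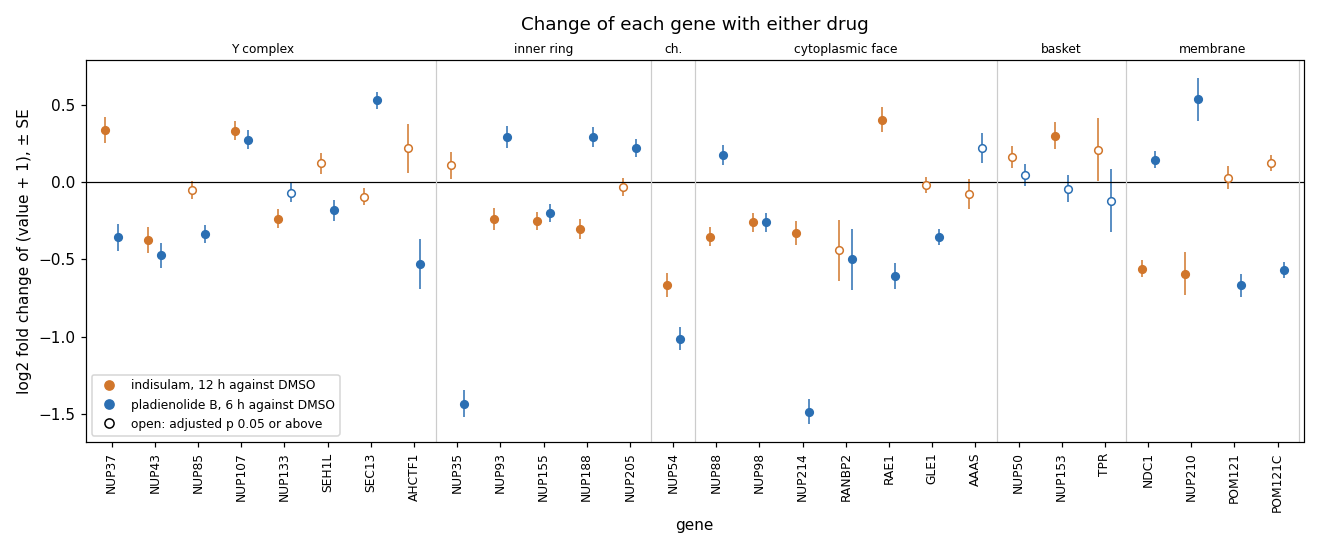
Log2 fold change of (value + 1) against DMSO, ± SE from limma over 9 libraries, for each of the 28 genes; filled points passed an adjusted p of 0.05, open points did not, and "ch." is the central channel. Falls of NUP35, NUP214 and NUP54 with pladienolide B exceed 1 log2 unit, and the largest rise is 0.54; the pladienolide B rises turn negative, or for SEC13 and NUP210 lose their call, with equal library totals.

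The outer rings are built from the Y complex. With indisulam 2 of its 8 measured genes rose and 2 fell (14.5% and 12.4% of all features did), with 1 rise left without DMSO library 3 or indisulam library 3 and 1 fall without DMSO library 3 or indisulam library 1. With pladienolide B 2 rose and 5 fell (34.3% and 35.5% of all features). With equal totals 0 rose and 7 fell, beside 2733 and 9086 of the 16846 features tested. SEC13, which also works in the COPII coat of secretory vesicles, and NUP107, the namesake of the complex, supplied the pladienolide B rises.

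SEC13 (GSHG0030954, chr3:10293186-10321112, hg38) gave 9156, 8835 and 8586 normalised reads in DMSO, 8221, 8250 and 8435 with indisulam and 13078, 13123 and 12177 with pladienolide B. The pladienolide B libraries stood above all others, and the indisulam libraries lay just below DMSO. The change was 0.53 ± 0.05 (log2 ± SE, limma adjusted p = 8.08e-07) with pladienolide B, 0.06 (adjusted p = 0.291) with equal library totals. With indisulam it was −0.09 (adjusted p = 0.22). Its feature shares 263 bp with that of TATDN2 and GHRLOS, which changed by 0.43 ± 0.07 with pladienolide B (limma adjusted p = 0.000108), and reads in the shared stretch may belong to either.

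NUP107 (GSHG0009212, chr12:68686951-68745787) gave 7144, 6604 and 7218 normalised reads in DMSO, 8867, 8897 and 8643 with indisulam and 9089, 7925 and 8383 with pladienolide B. Every treated library exceeded every DMSO library. The change was 0.33 ± 0.06 with indisulam (limma adjusted p = 0.00149) and 0.28 ± 0.06 with pladienolide B (adjusted p = 0.00126), the latter −0.20 with equal totals and without a call under quantile normalisation. The drugs did not differ detectably (−0.06, adjusted p = 0.415).

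NUP37, a small WD-repeat subunit of the Y, moved in opposite directions. Its normalised reads were 1459, 1433 and 1317 in DMSO, 1688, 1778 and 1848 with indisulam and 1017, 1060 and 1214 with pladienolide B (GSHG0010469, chr12:102073103-102120114). The 3 groups did not overlap. The change with indisulam was 0.34 ± 0.09 (limma adjusted p = 0.0104), a call lost without DMSO library 3 or indisulam library 3. The change with pladienolide B was −0.36 ± 0.09 (adjusted p = 0.00191), which was −0.09 and not called under quantile normalisation.

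NUP43, another WD-repeat subunit of the Y (chr6:149724315-149746560), fell with both drugs. It gave 1686, 1717 and 1607 normalised reads in DMSO, 1211, 1273 and 1385 with indisulam and 1102, 1234 and 1275 with pladienolide B. No treated library reached the DMSO range, and the treated groups overlapped each other. The changes were −0.37 ± 0.08 (limma adjusted p = 0.00478) and −0.47 ± 0.08 (adjusted p = 0.000159).

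Among the other outer-ring genes, NUP85 went from 7276 ± 125 normalised reads in DMSO (SD, n = 3) to 7038 ± 423 with indisulam and 5776 ± 195 with pladienolide B, and only the second difference passed the test (−0.33, limma adjusted p = 0.000181). NUP133, at the tip of the stem, was 5932 ± 98.2, 5044 ± 381 and 5662 ± 122 in the same order. It fell with indisulam (−0.24, adjusted p = 0.0134), a call lost without DMSO library 3 or indisulam library 1. Its pladienolide B change of −0.07 was not called, but was a called fall with TMM (−0.172), equal totals (−0.54) and quantile scaling (−0.211). SEH1L, which also serves the GATOR2 nutrient-sensing complex, fell by a small amount with pladienolide B (−0.18, adjusted p = 0.0288), from 5904 ± 379 to 5207 ± 320, and lost the call without DMSO library 3 or pladienolide B library 1 or 2. AHCTF1 (ELYS), which seeds pores on chromatin after mitosis, read 4351, 4440 and 4753 in DMSO, 5270, 4997 and 5502 with indisulam and 2972, 2325 and 4418 with pladienolide B. Pladienolide B library 3 lay within the DMSO range, libraries 1 and 2 far below it. The pladienolide B change of AHCTF1 was −0.53 ± 0.16 (limma adjusted p = 0.00919), and −0.32 (adjusted p = 0.0375) without pladienolide B library 2. Its call was lost without a mean trend (limma adjusted p = 0.0507) and with DESeq2 (adjusted p = 0.0545). The indisulam change of AHCTF1, 0.22 ± 0.16, was not called (limma adjusted p = 0.343). It was a called rise with only the DMSO and indisulam libraries fitted (adjusted p = 0.00778). Of 75-base windows in the AHCTF1 transcript, 39.1% also occur in the pseudogene AHCTF1P1, so its count is uncertain.

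In the inner ring the drugs gave different pictures. With indisulam 3 of 5 genes fell and none rose (12.4% and 14.5% of all features). With pladienolide B 3 rose and 2 fell (34.3% and 35.5% of all features), and the 3 rises (NUP93, NUP188 and NUP205) became falls with equal library totals. NUP35 was the gene that stood furthest from the rest.

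NUP35 (GSHG0024624, chr2:183117514-183161680), a membrane-binding subunit that links the inner ring to the envelope, gave 1822, 1864 and 1856 normalised reads in DMSO and 1912, 2017 and 2055 with indisulam. With pladienolide B it gave 640.1, 639.7 and 777.5, all far below the other 6 libraries. The fall was −1.43 ± 0.09 (limma adjusted p = 5.48e-09) and ranged from −1.91 to −1.12 over the alternatives. With indisulam the change of 0.11 did not pass the test (adjusted p = 0.38).

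NUP93 (GSHG0016506, chr16:56730129-56850286), the scaffold that holds the channel trio in place, gave 4291, 4469 and 4466 normalised reads in DMSO, 3411, 4066 and 3775 with indisulam and 5118, 5525 and 5582 with pladienolide B. The groups were apart in that order, indisulam lowest. The changes were −0.24 ± 0.07 (limma adjusted p = 0.0238) and 0.29 ± 0.07 (adjusted p = 0.00193), the latter −0.18 with equal totals. The indisulam call was lost without indisulam library 1 (−0.17, adjusted p = 0.107), without indisulam library 3 and without DMSO library 2 or 3.

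NUP188 (GSHG0043862, chr9:128947699-129007096), a large inner-ring scaffold, followed the same order. Its normalised reads were 13080, 13794 and 14221 in DMSO, 10215, 11885 and 11280 with indisulam and 16510, 17571 and 16309 with pladienolide B. No groups overlapped. The changes were −0.30 ± 0.06 (limma adjusted p = 0.00342) and 0.29 ± 0.06 (adjusted p = 0.000908), the latter −0.18 with equal totals and −0.11 under quantile normalisation. Its feature shares 61 bp with SH3GLB2.

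NUP155, which links the inner ring to its neighbours, fell with indisulam (−0.25 ± 0.06, limma adjusted p = 0.00645) and with pladienolide B (−0.20 ± 0.06, adjusted p = 0.0068). The DMSO mean was 12234 ± 341 normalised reads (SD, n = 3), against 10297 ± 414 after indisulam and 10647 ± 632 after pladienolide B. NUP205, the close relative of NUP188, was 5927 ± 213, 5796 ± 240 and 6916 ± 225. Only the pladienolide B difference passed the test (0.22 ± 0.06, adjusted p = 0.00341), but it was −0.25 with equal totals and without a call under TMM or quantile scaling.

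NUP54 of the central channel fell with both drugs (GSHG0033557, chr4:76114660-76148502). It gave 2889, 2848 and 2913 normalised reads in DMSO, 1673, 1848 and 1933 with indisulam and 1407, 1348 and 1535 with pladienolide B. The 3 groups were apart, and the DMSO values lay close together. The changes were −0.67 ± 0.08 (limma adjusted p = 4.59e-05) and −1.01 ± 0.08 (adjusted p = 4.57e-08), each called under all 21 alternatives. The direct difference, −0.35 (adjusted p = 0.00108), was not called under quantile normalisation.

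The channel partner NUP58 is not on the list of members but was measured. It fell from 4280, 4064 and 4347 normalised reads in DMSO to 2197, 2273 and 2252 with indisulam and 1758, 1433 and 1972 with pladienolide B. The changes were −0.92 ± 0.10 (limma adjusted p = 2.19e-05) and −1.31 ± 0.10 (adjusted p = 3.37e-08). The joint feature of NUP62 and IL4I1 (GSHG0023100, chr19:49889654-49946266) gave 7189, 7750 and 7378 in DMSO, 7195, 7264 and 7110 with indisulam and 7199, 8485 and 7038 with pladienolide B. These groups overlapped, and neither change passed the test (−0.05, adjusted p = 0.652; 0.02, adjusted p = 0.796). A part of that feature belongs to a gene that is no nucleoporin, so it does not stand for NUP62 alone.

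Of 7 genes of the cytoplasmic face and its mRNA export platform, 3 fell and 1 rose with indisulam (12.4% and 14.5% of all features did), and 5 fell and 1 rose with pladienolide B (35.5% and 34.3% of all features). With equal totals the pladienolide B counts were 7 and 0, beside 9086 and 2733 of the 16846 features tested. Without DMSO library 3 no rise with pladienolide B was called. Without DMSO library 1, 2 rises were called.

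NUP214 (GSHG0043901, chr9:131125586-131234669) carries the FG repeats of the cytoplasmic filaments and docks the helicase DDX19. It gave 8112, 8503 and 8944 normalised reads in DMSO, 6641, 6833 and 6861 with indisulam and 2800, 2841 and 3514 with pladienolide B. The groups stood apart, and pladienolide B was far the lowest. The changes were −0.33 ± 0.08 (limma adjusted p = 0.00855) and −1.49 ± 0.08 (adjusted p = 2.03e-09), the latter between −1.96 and −1.43 over the alternatives. The direct difference was −1.16 (adjusted p = 2.24e-08).

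NUP88 (chr17:5384833-5419666) is the binding partner of NUP214 on the filaments. Its normalised reads were 5744, 5623 and 5256 in DMSO, 4023, 4546 and 4461 with indisulam and 6079, 6294 and 6379 with pladienolide B. The groups were apart, with pladienolide B highest. The indisulam change of NUP88 was −0.35 ± 0.06 (limma adjusted p = 0.00124). The pladienolide B change of 0.17 ± 0.06 (adjusted p = 0.0251) was −0.30 with equal totals and lost its call in 6 alternatives, among them those without DMSO library 3 or pladienolide B library 3. Its feature overlaps RABEP1 by 1508 bp.

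RAE1, an mRNA export factor that binds NUP98, rose with indisulam and fell with pladienolide B (GSHG0026962, chr20:57351226-57379202). It gave 4261, 4129 and 4666 normalised reads in DMSO, 5491, 5709 and 6081 with indisulam and 2506, 3028 and 3067 with pladienolide B. The groups were apart. The changes were 0.41 ± 0.08 (limma adjusted p = 0.00283) and −0.61 ± 0.08 (adjusted p = 1.64e-05), and both were called under all 21 alternatives.

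NUP98 (GSHG0006992, chr11:3675010-3797554) encodes a precursor that is cut into Nup98 and the Y-complex subunit Nup96. It gave 10043, 9600 and 9998 normalised reads in DMSO, 7940, 8163 and 8689 with indisulam and 7621, 8605 and 8563 with pladienolide B. Both treated groups lay below DMSO and overlapped each other. Each change was −0.26 ± 0.06 (limma adjusted p = 0.00757 and 0.0019).

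RANBP2 (GSHG0025684, chr2:108719480-108785809) is the giant SUMO ligase of the filaments. It gave 3466, 3137 and 3810 normalised reads in DMSO, 2594, 2377 and 2677 with indisulam and 2546, 1617 and 3557 with pladienolide B. The indisulam libraries were all below DMSO, whereas pladienolide B library 3 lay within the DMSO range and library 2 far below. The changes were −0.44 ± 0.20 (limma adjusted p = 0.114) and −0.50 ± 0.20 (adjusted p = 0.0357). Without pladienolide B library 2 the second became −0.20 (adjusted p = 0.163), and the first became a call (adjusted p = 0.00881). The indisulam fall was called in 5 of 21 alternatives. Among them were only the DMSO and indisulam libraries fitted (limma adjusted p = 0.000566), a replicate block (0.0132) and quantile normalisation (0.0497). Leaving out pladienolide B library 3 also gave a call (limma adjusted p = 0.0241). The pladienolide B call was also lost without pladienolide B library 1 or DMSO library 1 or 3. Of RANBP2's 75-base windows 20.3% occur in other genes, chiefly its RGPD copies, so its count is uncertain. Among these copies RGPD8 went from 1612 ± 146 to 728.9 ± 154 with pladienolide B (SD, n = 3; −1.16, limma adjusted p = 3.46e-06). RGPD3 (−1.75, adjusted p = 4.44e-06) and RGPD6 (−0.87, adjusted p = 0.00136) were also called lower. RGPD1, RGPD2, RGPD4 and the joint feature of RGPD5 and RGPD6 were not called.

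GLE1, the activator of DDX19 on the filaments, fell with pladienolide B from 6036 ± 142 to 4723 ± 157 normalised reads (SD, n = 3; −0.35, limma adjusted p = 4.46e-05) and was 5964 ± 30.7 with indisulam. AAAS (aladin), mutated in triple-A syndrome, was at 943.3 ± 109 in DMSO, 890.6 ± 16.3 after indisulam and 1097 ± 92.4 after pladienolide B. Neither difference from DMSO passed the test. The pladienolide B change of AAAS, 0.22 (limma adjusted p = 0.0603), was a called rise under quantile normalisation (0.518, adjusted p = 0.00047), without DMSO library 1 and without pladienolide B library 3, and a called fall with equal totals (−0.252, adjusted p = 0.0282).

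Of the 3 nuclear basket genes, 1 rose with indisulam (14.5% of all features did) and none passed the test with pladienolide B (69.8% of all features did). With only the DMSO and indisulam libraries fitted, all 3 were called higher with indisulam, where 3497 of the 16846 features were. With equal totals all 3 were called lower with pladienolide B, where 9086 of the 16846 features were. Without pladienolide B library 2, 1 was called higher, where 5579 features were. The gene called with indisulam in the main fit was NUP153 (GSHG0037582, chr6:17615037-17706925), the FG nucleoporin at the base of the basket.

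NUP153 gave 17136, 17394 and 18613 normalised reads in DMSO, 21862, 20944 and 22596 with indisulam and 14587, 17514 and 19819 with pladienolide B. The indisulam libraries were above all others, and the pladienolide B libraries spread across the DMSO range. The changes were 0.30 ± 0.09 (limma adjusted p = 0.0222) and −0.04 (adjusted p = 0.671). The pladienolide B change was a called fall of −0.516 with equal totals (adjusted p = 0.000246) and −0.483 under quantile normalisation (adjusted p = 0.000237). The indisulam call was lost with equal totals, without a mean trend and without any 1 of DMSO library 1 or 2 or indisulam library 1 or 3, where the adjusted p was 0.062 to 0.0827. An antisense feature, NUP153-AS1, overlaps NUP153 by 796 bp at a mean of 643 normalised reads, and no source used here says whether reads were counted by strand.

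TPR (GSHG0003407, chr1:186311652-186375732), the coiled-coil protein of the basket filaments, gave 2893, 2488 and 2954 normalised reads in DMSO, 3494, 3063 and 3077 with indisulam and 3225, 1582 and 3255 with pladienolide B. A single library, pladienolide B 2, lay far below the other 8. The changes were 0.21 ± 0.20 (limma adjusted p = 0.489) and −0.12 ± 0.20 (adjusted p = 0.623). Without that library the second was 0.23 (adjusted p = 0.0333), the opposite direction. The indisulam change of TPR was a called rise with only the DMSO and indisulam libraries fitted (limma adjusted p = 0.0438). NUP50, the basket protein that helps release importin cargo, was 3372 ± 180, 3782 ± 154 and 3492 ± 277 in DMSO, indisulam and pladienolide B (SD, n = 3), and no difference from DMSO passed the test. Its indisulam change of 0.17 was a called rise with only those 2 groups fitted (limma adjusted p = 0.0382) and with a replicate block (adjusted p = 0.0173). Of NUP50's 75-base windows 10.4% occur in transcripts of other genes, so its count is uncertain. Its feature also overlaps LOC105373064, at a mean of 22 normalised reads, by 11776 bp.

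Of the 4 transmembrane genes, 2 fell with indisulam (12.4% of all features did), and 2 fell and 2 rose with pladienolide B (35.5% and 34.3%). With equal totals 3 fell and 0 rose with pladienolide B, beside 9086 and 2733 of the 16846 features tested. NDC1 and NUP210 fell with indisulam, while POM121 and POM121C fell with pladienolide B.

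NDC1 (GSHG0002478, chr1:53765460-53838502), a membrane anchor needed to insert new pores, gave 6092, 6103 and 5999 normalised reads in DMSO, 3875, 4227 and 4240 with indisulam and 6724, 6668 and 6724 with pladienolide B. The indisulam libraries stood well below the rest, and the pladienolide B libraries slightly above DMSO. The fall was −0.56 ± 0.06 (limma adjusted p = 1.63e-05), called under all 21 alternatives. The pladienolide B change of 0.14 ± 0.06 (adjusted p = 0.0324) was −0.33 with equal totals, −0.03 under quantile normalisation, and lost its call in 8 other alternatives, including those without any 1 DMSO library or without pladienolide B library 1 or 3.

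NUP210 (GSHG0031050, chr3:13316235-13420322) gave 251.3, 283 and 292.4 normalised reads in DMSO, 199.7, 184.5 and 164.1 with indisulam and 446.5, 417.9 and 341.2 with pladienolide B. The groups were apart. The changes were −0.59 ± 0.14 (limma adjusted p = 0.00759) and 0.54 ± 0.14 (adjusted p = 0.00393), the latter 0.06 and not called with equal totals. At 1.13 (adjusted p = 7.21e-06), the direct difference between the drugs was the largest positive one of the members.

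POM121 (GSHG0040741, chr7:72879357-72951459) and its copy POM121C (GSHG0040740, chr7:75416786-75486299) encode near-identical membrane nucleoporins. POM121 gave 10456, 10824 and 11371 normalised reads in DMSO, 10926, 10804 and 11575 with indisulam and 6017, 7324 and 7277 with pladienolide B. POM121C gave 18734, 19541 and 19936, then 21319, 20386 and 21669, then 12553, 13563 and 13133. In both genes the pladienolide B libraries lay below all others. The falls were −0.67 ± 0.07 (limma adjusted p = 2.16e-06) and −0.57 ± 0.05 (adjusted p = 3.35e-07), and the indisulam changes of 0.03 and 0.12 did not pass the test. The indisulam change of POM121C was a called rise with only the DMSO and indisulam libraries fitted (adjusted p = 0.047). The copies cannot be read as independent: 40.5% of 75-base windows of POM121C occur in POM121 and 20% of those of POM121 in POM121C, and no source used here says how such reads were assigned.

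Since both drug comparisons use the same 3 DMSO libraries, they were also set against each other directly. Against indisulam, 9 members were higher with pladienolide B and 12 lower by limma, beside 34.7% and 35.6% of all features tested (70.3% in either direction). Equal totals gave 4 higher and 20 lower, beside 3014 and 8497 of the 16846 features tested. The groups did not overlap for 9 members higher and 12 lower, beside 35.6% and 36.2% of all features. The median member difference was −0.11 and that of all features 0.01. The largest differences were those of NUP35 (−1.54, adjusted p = 2.97e-09), NUP214 (−1.16), NUP210 (1.13) and RAE1 (−1.01, adjusted p = 1.09e-07). SEC13 (0.62, adjusted p = 1.68e-07), NDC1 (0.71, adjusted p = 7.76e-08) and NUP188 (0.60, adjusted p = 1.44e-06) were higher with pladienolide B than with indisulam and stayed so with equal totals. The NUP93 (0.53) and NUP88 (0.53) differences lost their call there.

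**Figure D3:**
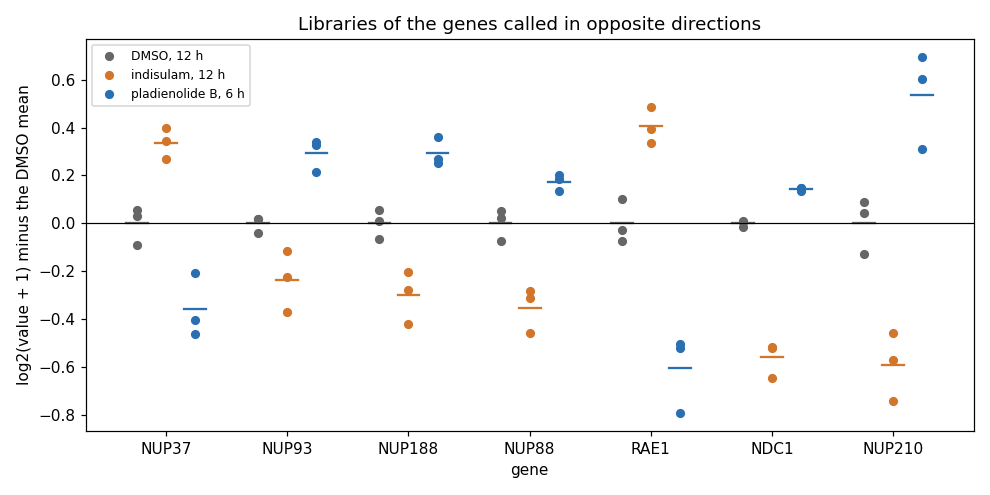
Log2(value + 1) minus the DMSO mean for the genes called in opposite directions against DMSO: points are libraries and bars are means of 3. NUP37 and RAE1 are above DMSO with indisulam and below it with pladienolide B, and NUP93, NUP188, NUP88, NDC1 and NUP210 the reverse; with equal library totals the pladienolide B rises of NUP93, NUP188, NUP88 and NDC1 become falls and that of NUP210 is not called.

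The pladienolide B calls that held across scalings were falls, an outcome that the choice of scalings favours. Against the authors' factors, the median shift of all features was −0.472 with equal totals, −0.105 with TMM and 0.107 with quantile normalisation. A fall that persists with equal totals or TMM therefore tells little. NUP35, NUP214, NUP54, RAE1, POM121 and POM121C fell with pladienolide B under all 4 scalings, and no member was called higher under all 4. SEC13 (0.057) and NUP210 (0.065) stayed above 0 with equal totals, without a call. The falls of NUP43, NUP85, NUP98, NUP155, GLE1, SEH1L, AHCTF1 and RANBP2 also kept their direction and call across the scalings.

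**Figure D4:**
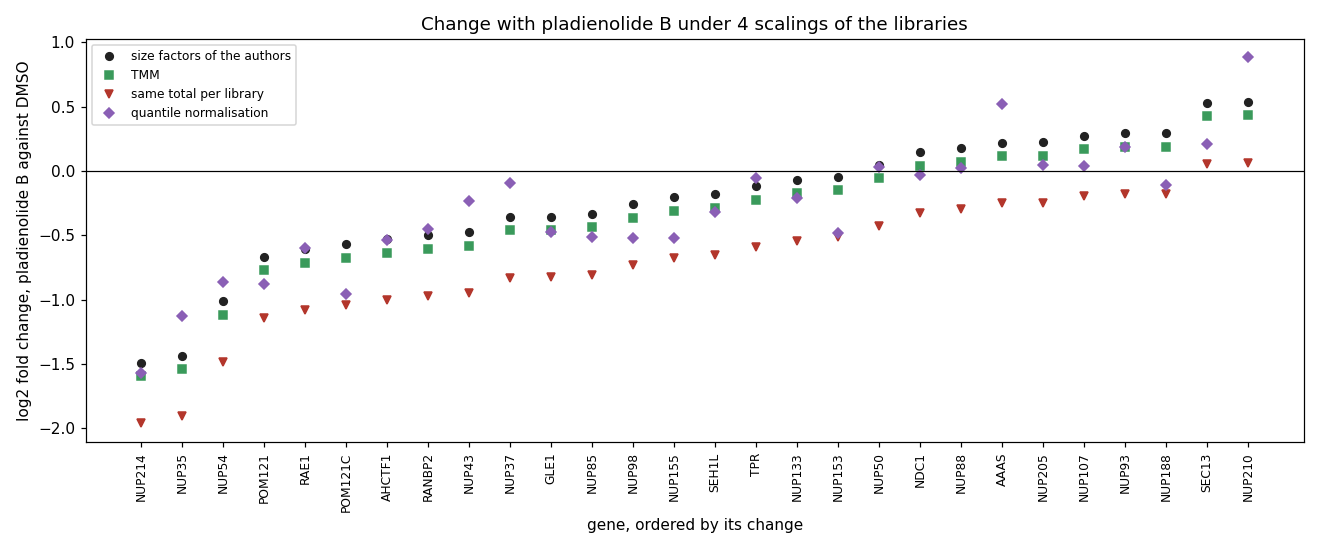
Log2 fold change with pladienolide B against DMSO for the 28 genes, ordered by change, with the authors' size factors and 3 other scalings. Equal library totals (triangles) place every gene but SEC13 and NUP210 below 0, while NUP214, NUP35 and NUP54 stay between −1.96 and −0.86 under each scaling.

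Pore genes were longer and had more exons than most genes. The median member had 18.5 exons (8 to 51), a gene span of 61720 bp and a transcript of 5461 bases, against 9 exons, 33300.5 bp and 3414 bases over 12270 protein-coding features tested (GENCODE 29). Across the 28 members, Spearman's rho of exon number with the log2 change was −0.18 for indisulam and 0.27 for pladienolide B. Across all protein-coding features it was −0.24 and −0.22. These are descriptions across genes of the same libraries, and genes are not independent replicates.

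Genes that work with the pore were read from 4 further lists. The list of other pore proteins holds proteins that belong to or bind the pore but are not members, and 7 of its 8 genes were tested. With pladienolide B 6 of the 7 fell and none rose, at a median of −0.89, where 35.5% of all features fell and 34.3% rose. ZC3HC1, a basket protein, went from 1240 ± 63.3 to 477.1 ± 74.1 normalised reads (SD, n = 3; −1.39, limma adjusted p = 5.89e-08). MAD1L1, a spindle checkpoint protein tethered at the basket, went from 3003 ± 28.2 to 1425 ± 96.4 (−1.08, adjusted p = 1.5e-08). The SUMO proteases SENP1 (−0.65) and SENP2 (−0.89) fell as well, as did NUP42 (−0.61), which binds GLE1 and lost its call under quantile normalisation (−0.23). Falls numbered 7 with equal totals and 5 under quantile normalisation, beside 9086 and 5429 of the 16846 features tested. With indisulam NUP58 alone of the 7 fell, and none rose.

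Of 30 transport receptors and genes of the Ran cycle tested, 6 rose and 8 fell with indisulam (median −0.04), where 14.5% and 12.4% of all features did. The rises numbered 3 without DMSO library 1, without DMSO library 2 or without indisulam library 3. All features then gave 1752, 1620 and 1565 rises in that order, against 2437. With pladienolide B 11 rose and 13 fell (median −0.11), where 34.3% and 35.5% of all features did. With pladienolide B RAN, the GTPase that gives transport its direction, went from 23038 ± 768 to 43274 ± 2542 normalised reads (SD, n = 3; 0.91, limma adjusted p = 5.88e-09). RANBP6, a relative of the importins, rose from 1354 ± 65.8 to 3844 ± 367 (adjusted p = 2.02e-09), and both rises were called under all 4 scalings. TNPO2, an import receptor, went from 16791 ± 700 to 4879 ± 171 (−1.78, adjusted p = 2.68e-11). TNPO3, which imports SR proteins, fell by 0.89 (adjusted p = 2.8e-07). With indisulam the microRNA precursor exporter XPO5 went from 6763 ± 299 to 4401 ± 494 (−0.63, adjusted p = 0.000186) and the importin IPO9 from 3930 ± 72.3 to 2798 ± 60.4 (−0.49, adjusted p = 6.78e-05). The importin alpha genes KPNA1 (0.66, adjusted p = 9.57e-06) and KPNA5 (0.60, adjusted p = 0.0292) rose, KPNA5 without a call with equal totals (adjusted p = 0.0579), without DMSO library 1 or 3 and without indisulam library 1 or 3. With equal totals the pladienolide B counts were 5 and 21, beside 2733 and 9086 of the 16846 features tested.

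Of 20 mRNA export factors tested, 5 rose and 7 fell with indisulam (median −0.10; 14.5% and 12.4% of all features). With pladienolide B 8 rose and 8 fell (median −0.02; 34.3% and 35.5% of all features). With pladienolide B the partners of the main export receptor moved apart: NXF1 went from 5079 ± 340 to 2342 ± 174 (SD, n = 3; −1.12, limma adjusted p = 1.49e-08) and its partner NXT1 from 2679 ± 76.9 to 5262 ± 734 (0.96, adjusted p = 1.38e-06). The adaptor ALYREF rose by 0.87 (adjusted p = 1.61e-08), and MCM3AP, the TREX-2 scaffold, fell by 0.80 (adjusted p = 5.17e-07). These directions and calls held under all 4 scalings. With indisulam THOC1 of the THO complex (−0.81, adjusted p = 0.000439) and the cap-binding protein NCBP1 (−0.65, adjusted p = 4.6e-05) fell, while NCBP2, its partner (0.43, adjusted p = 0.000349), and SARNP of the TREX complex (0.44, adjusted p = 0.000771) rose. With equal totals the pladienolide B counts were 3 and 12, beside 2733 and 9086 of the 16846 features tested.

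Of 18 genes of the nuclear lamina and envelope, 3 rose and 3 fell with indisulam (median 0.05), where 14.5% and 12.4% of all features did. The rises numbered 1 without DMSO library 1 or without DMSO library 3. All features then gave 1752 and 1678 rises, against 2437. With pladienolide B 6 rose and 7 fell (median −0.01), where 34.3% and 35.5% of all features did. Rises numbered 3 under quantile normalisation, beside 6045 of the 16846 features tested. BANF1, which bridges chromatin and the envelope, went from 19399 ± 383 to 38442 ± 1221 with pladienolide B (SD, n = 3; 0.99, limma adjusted p = 1.18e-09). Its partners LEMD2 (−1.22, adjusted p = 1.5e-07) and LEMD3 (−1.09, adjusted p = 2.23e-05) fell, and emerin (EMD) changed by 0.47 (adjusted p = 3.89e-06), a change of 0.00 with equal totals. With indisulam LBR, the lamin B receptor, went from 9026 ± 199 to 5331 ± 89.6 (−0.76, adjusted p = 1.59e-06), and NEMP1 of the inner membrane from 1262 ± 27.1 to 704.9 ± 31.2 (−0.84, adjusted p = 1.5e-05). LEMD3 (0.50, adjusted p = 0.0284) and TOR1AIP2 (0.21, adjusted p = 0.00657) rose, LEMD3 without a call with equal totals (adjusted p = 0.0534), without any 1 DMSO library and without indisulam library 3. With equal totals the pladienolide B counts were 1 and 16, beside 2733 and 9086 of the 16846 features tested.

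**Figure D5:**
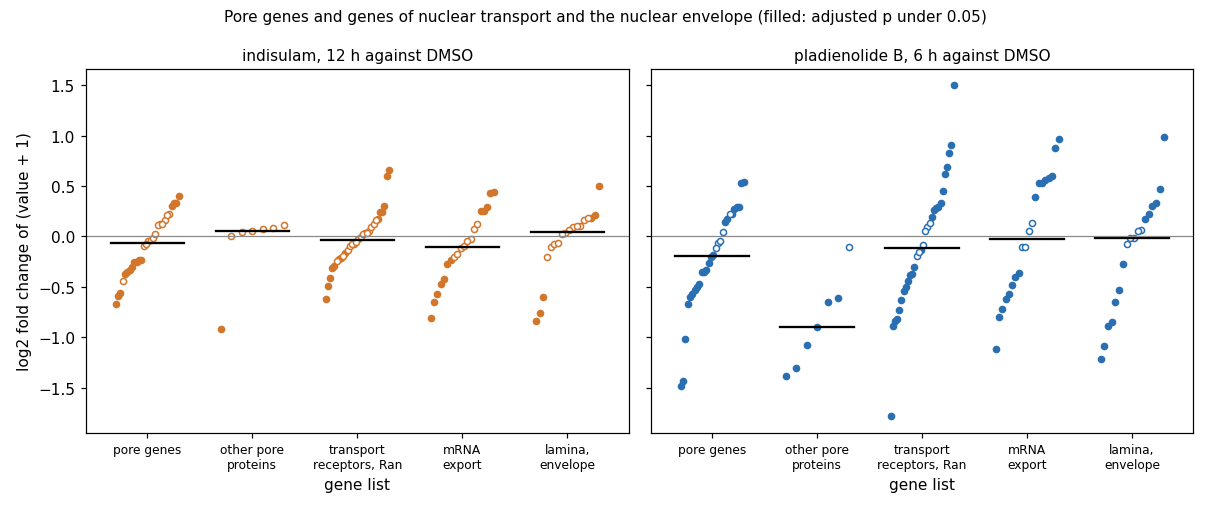
Log2 fold change of (value + 1) of each tested gene in 5 lists, with indisulam (left) and pladienolide B (right); filled points passed an adjusted p of 0.05 and black bars are medians. The other pore proteins have a median of −0.89 with pladienolide B, and the medians of the remaining lists lie between −0.19 and 0.05 with either drug; equal library totals shift each pladienolide B median by −0.47.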

How the data were processed

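Polyadenylated RNA of 9 MDA-MB-231 libraries (3 each for DMSO, indisulam and pladienolide B) was prepared with a stranded kit, per the labels' protocols. FastQC, Picard, SAMtools, STAR 2.7.5a, DESeq2 and hg38 are named in the submitters' processing notes. No source used here names the counting tool or its strand setting. The deposited signal per feature is a read count divided by 1 size factor per library, as the authors' table of DESeq2-normalised values and its whole-number steps show (100% of values whole multiples of 1 read within 0.01). Features carry FAST DB identifiers, symbols and coordinates.

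Log2(value + 1) was fitted with limma 3.58.1 in R 4.3.3 as the main test, over all 9 libraries together with a trended variance; p-values were two-sided and adjusted by Benjamini-Hochberg over the 16846 features whose mean reached 10; adjusted p under 0.05 was a call. Log2 changes of low genes are understated by this scale. Alternatives were pseudocounts of 0.5 and 8, a mean of at least 50, no filter, TMM, equal totals and quantile scaling, no trend, a replicate block, only the groups compared, edgeR 4.0.16 and DESeq2 1.42.0 on recovered reads, and leaving out each library. The fit was tested on simulated data. No libraries of 1 group agreed within sampling noise (lowest chi-square per gene 8.63). The labels call libraries replicas without naming separate cultures, so a p-value reflects the spread between libraries alone, which may be technical.

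The members and gene lists were chosen with earlier results of these data known. Values per library were given for up to 5 non-overlapping called members with the largest rise and 5 with the largest fall per drug, members called in opposite directions, and 9 symbols named whatever their values (NUP107, NUP93, NUP62, NUP98, TPR, NUP153, RANBP2, NDC1, POM121); from each list, up to 2 called genes per direction and drug. NUP43, AHCTF1, POM121C and SENP1, SENP2, MAD1L1 and NUP42 outside these counts were named after their values were seen. Promoters are from RefSeq GRCh38.p14, exon structure and 75-base windows from GENCODE 29 (Python 3.11.15).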

Additional observations from a re-analysis of the deposited data

How the results depend on the processing

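Most values kept their direction and side of the threshold under the alternatives run. Counts of members that moved by over 1.5 times were the following. For indisulam, rises numbered 7 with a replicate block, 8 with only the groups compared and 2 without indisulam replicate 3, against 4. Over all features they numbered 3548, 3497 and 1565, against 2437. For pladienolide B, rises numbered 5 with TMM, 0 with equal totals and 4 with quantile scaling, against 8, and falls 26 with equal totals, against 15. Against indisulam, equal totals gave 4 higher and 20 lower, against 9 and 12. Leaving out each library gave 2 to 4 rises and 9 to 12 falls for indisulam, 6 to 9 and 13 to 15 for pladienolide B, and 8 to 9 and 12 to 14 between the drugs. With equal totals the pladienolide B changes of NUP107 (−0.20), NUP93 (−0.18), NUP188 (−0.18), NUP205 (−0.25), NUP88 (−0.30), AAAS (−0.25), NUP50 (−0.42) and NDC1 (−0.33) reversed, as did the differences between the drugs of NUP133 (−0.25), NUP155 (−0.37), NUP205 (−0.16) and AAAS (−0.12). Quantile scaling reversed NUP188 (−0.11) and NDC1 (−0.029) against DMSO and NUP155 (−0.23) between the drugs. TPR reversed without pladienolide B replicate 2, its changes with 1 library left out running from −0.294 to 0.226. Equal totals shift all features down by construction; for the other reversals the cause was not tested. Of the remaining single-gene values, 62 lost and 36 gained a call. Same-numbered libraries deviated together with r of 0.03 to 0.11 (indisulam), 0.00 to 0.11 (pladienolide B) and 0.075 to 0.128 (between the drugs). Differently numbered libraries of different groups gave r of −0.124 to 0.045, so deviations went together weakly by number. The main fit did not take the numbers as pairs. A replicate block raised the indisulam calls over all features from 2437 to 3548 rises and from 2095 to 2739 falls. The 3 libraries a group limit the precision most for TPR and RANBP2 (SE 0.20) and AHCTF1 (0.16).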
